A study of Mus musculus with 6 samples.

Results

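The translation initiation and elongation factors are the proteins that bring ribosomes to messenger RNA, find the start codon and move the ribosome along the coding sequence. All array probes with a symbol beginning with Eif1 to Eif6, Eef1 or Eef2 were taken, and the X- and Y-linked Eif2s3 pair, pseudogenes and the Eif2ak kinases were left out. This gave 56 genes on 114 probes, out of 19057 genes with 1 symbol on the array. A probe counted as detected on an array where its detection p was under 0.05, and it was tested where that held on 3 or more arrays, which left 53 of the 56 genes and 98 of the 114 probes. Eif1, Eif2s1, Eif3g and Eif4g1 were not analysed here.

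The tissue was conjunctival epithelium of the fornix, the fold where the lid lining meets the eye, laser-dissected from mouse embryos at E14.5. The KO group was 3 embryos of genotype Fgfr2 fx/fx; Le-Cre-positive (Fgfr2-/-), and the WT group was 3 wild type embryos, all on a mixed FVB and 129 background, with 1 array for each embryo. Fgfr2 is a receptor for fibroblast growth factors, and Le-Cre is a Cre transgene driven by Pax6 regulatory sequence in the surface ectoderm of the eye. Only the KO embryos were labelled as carrying the transgene, so loss of Fgfr2 and the presence of Le-Cre cannot be told apart.

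As background, translation of most mRNAs starts when eIF4F, made of the cap-binding protein eIF4E, the helicase eIF4A and the scaffold eIF4G, binds the capped end. The eIF3 complex and the ternary complex of eIF2, GTP and initiator tRNA join the small ribosomal subunit, which scans to the start codon, and eIF2B recharges eIF2 with GTP. Growth factor receptors act on this step through mTORC1, which phosphorylates the 4E-BP proteins and so frees eIF4E. During elongation, eEF1A delivers aminoacyl-tRNA, the eEF1B subunits recharge eEF1A, and eEF2 moves the ribosome by a codon.

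Several elongation factors and some eIF3 and eIF4 subunits are made from TOP mRNAs, which begin with a C followed by a run of pyrimidines and are known to be translated under mTORC1 control. RefSeq promoter windows (GRCm38.p6) were found for 5 of the 9 TOP genes among the factors. They are shown because the capitals mark where the start region holds such a run, a C followed by at least 4 pyrimidines. Each window has 15 bases before the annotated start and 15 from it, on the gene's strand.
Eef1a1, chr9:78481710-78481739, minus strand: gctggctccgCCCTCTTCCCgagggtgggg
Eif3f, chr7:108934400-108934429, plus strand: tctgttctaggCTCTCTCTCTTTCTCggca
Eif4b, chr15:102073758-102073787, plus strand: ggtCTTCCCgtcggacgccgcgccaCCCCC
Eef1b2, chr1:63176816-63176845, plus strand: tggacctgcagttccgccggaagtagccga
Eef2, chr10:81176616-81176645, plus strand: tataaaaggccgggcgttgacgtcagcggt
The Eef1a1, Eif3f and Eif4b windows held a run and the Eef1b2 and Eef2 windows did not, searched on the gene's strand only. Of all 32851 promoters in the table, 36.4% held one in this window, as did 16 of the 56 promoters found for 42 of the factors (28.6%). No run in the 5 TOP windows began within 3 bases of the annotated start. Such a beginning was found in 9.81% of all promoters and 2 of the factors' 56 (3.57%). The Eef1a1 and Eif3f runs began earlier, at -5 and -4, and ran across the annotated start. The share of promoters with a run across the start was not computed. A match is a description of these letters, and the annotated start need not be the one used in this tissue.

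Intensities were corrected for background, quantile normalised and put on a log2 scale, and KO was compared with WT with limma. Adjusted p-values are Benjamini-Hochberg values over all 13916 tested genes and unnamed probes, log2 fold changes are KO minus WT, and errors of means are SDs with n = 3 embryos in each group. A gene with several probes is represented by its brightest. Levels are comparable between arrays for 1 probe, not between probes.

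The 3 KO arrays resembled each other less than the WT arrays did. Pairs of KO arrays correlated at 0.70 to 0.706 across genes, pairs of WT arrays at 0.939 to 0.959, and a KO with a WT array at 0.746 to 0.768. KO arrays detected 34.2% to 34.9% of all probes and WT arrays 48.5% to 50.6%. Fgfr2 itself, read by 4 probes whose position in the deleted part is not given in the sources used here, did not pass the test (log2 fold change 0.16, SE 0.26, adjusted p 0.79), so it does not check the labels. Epithelial markers were present in both groups, with a summed level of 12 markers of 16690 to 20670 in KO and 20610 to 21900 in WT on the linear scale. None of the 12 passed the test, 7 were negative and their median log2 fold change was -0.33. Every KO array lay below every WT array for 5 of the 12, against 17.2% of all genes, and above for 1, against 11.3%. Of 12 mesenchymal markers tested, 5 rose and 1, Foxc2, fell, and their summed level was 3961 to 7237 in KO and 2609 to 3017 in WT. Of 5 erythroid markers, 3 rose, and the sum was 5095 to 5479 in KO and 628 to 835 in WT. Cryab rose and Sox10 fell among the 3 lens and 3 melanocyte markers tested, the lens genes Cryaa and Crybb1 were undetected on every array, no leukocyte (4) or muscle (1) marker passed, and none of 5 endothelial markers was tested, with Tie1 undetected throughout. The part of this marker signal in the values below was not tested. In a dissected tissue, fewer cells of a type and less RNA per cell cannot be told apart.

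One translation factor passed the test in the KO epithelium, Eif4a3, which was 7.56-fold lower (limma adjusted p 0.044). It encodes an RNA helicase of the eIF4A family that sits in the exon junction complex left on spliced mRNA. No factor rose. The 1 call of 53 is 1.89%, near the 2.41% of all tested genes that were called, of which 221 of 336 fell. In the lower direction the shares were 1.89% of the factors and 1.59% of all genes, and in the higher direction 0 of 53 factors and 0.826% of all genes. At an unadjusted p below 0.05 limma gave 8 factors (15.1%), against 19.4% of all genes tested. Of the 8, 5 were lower in KO (9.43% of the factors, against 11.9% of all genes) and 3 higher (5.66%, against 7.51%). That balance over all genes depended on scaling, since cyclic loess gave 127 lower calls among 245, median scaling 963 among 1068 and unscaled values 1981 among 2068.

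Of the 53 factors, 35 (66%) had a negative log2 fold change, against 54.3% of all tested genes. Their median was -0.25, against -0.09 over all genes. With median scaling in place of quantile scaling the factors' median was -0.48 and that of all genes -0.49, and with cyclic loess the medians were -0.15 and 0.09. Without scaling they were -0.80 and -0.81. The factors' median thus lay below that of all genes with quantile scaling and cyclic loess, and beside it with median scaling and with none.

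**Figure D1:**
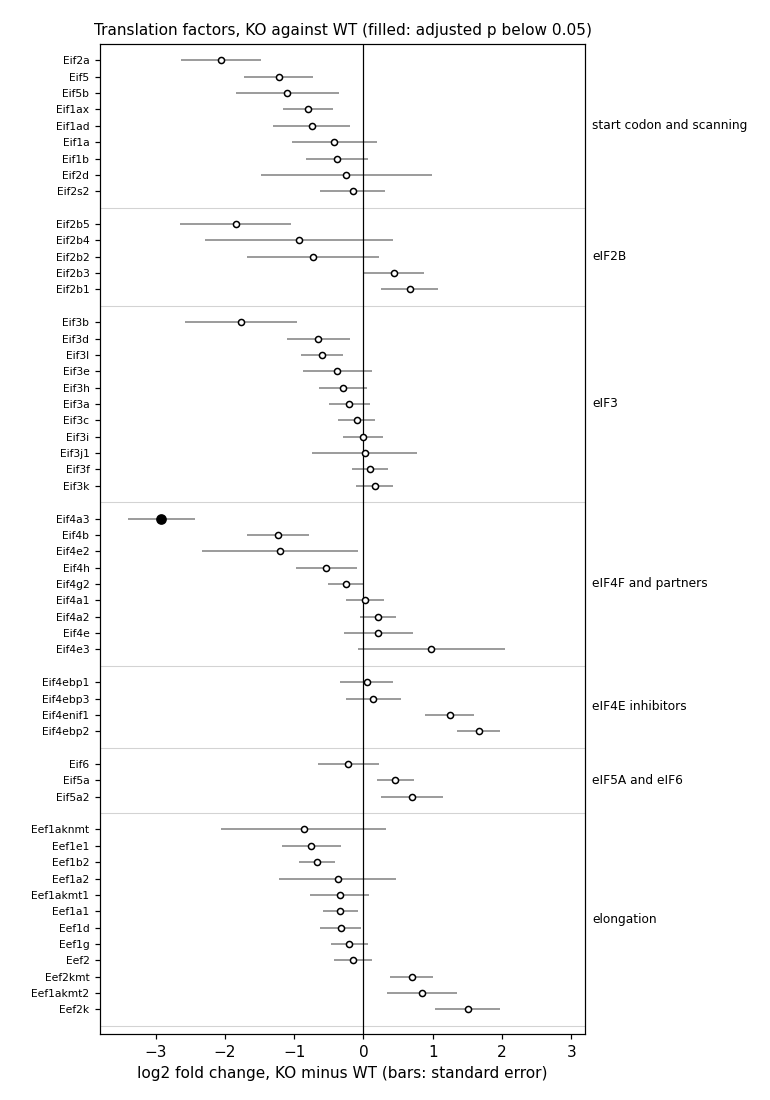
Log2 fold change, KO minus WT, of the 53 tested translation factors, grouped by role, with bars for the standard error and a filled point for an adjusted p below 0.05. Eif4a3 is the 1 filled point, at -2.92, all 9 start codon factors lie left of 0 and all 4 eIF4E inhibitors lie right of it. Eif2s2 and Eif2d cross 0 with cyclic loess, and Eif4ebp1 and Eif4ebp3 cross it with median scaling.

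Every KO array lay below every WT array for 10 factors (18.9%, against 17.2% of all genes), and above for 6 (11.3%, against 11.3%). Together the groups did not overlap for 16 of 53 factors (30.2%), against 28.5% of all genes. These shares are near the background in both directions. They are counts on normalised values, and for some of these factors the scanner values ordered the groups otherwise, as given below.

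The call belongs to the eIF4A family by sequence, not to cap binding. Eif4a3 had log2 intensities of 7.09, 6.40 and 5.54 on KO arrays A, B and C, and 9.17, 9.74 and 8.88 on WT arrays A, B and C. Before normalisation the scanner gave 175, 143 and 108 units in KO and 761, 1053 and 682 units in WT. All 3 KO embryos lay well below all 3 WT embryos, with KO C lowest. KO C was near the lowest level detected on its array (5.39), at a detection p of 0.037. The median probe read 103, 106 and 101 units on KO A, B and C. The means were 6.35 ± 0.78 in KO and 9.26 ± 0.44 in WT, and the log2 fold change was -2.92 (SE 0.49, limma adjusted p 0.044). Eif4a3 is read by 1 probe, so no other probe checks it. Over the alternatives in which it was tested, its log2 fold change ran from -3.84 to -2.01 and its adjusted p from 0.011 to 0.20. It did not pass with cyclic loess (adjusted p 0.066), no filter (0.053), an intensity trend with a robust prior (0.055) or array weights (0.066). Nor did it pass without KO B (0.064) or without WT A, B or C (0.20, 0.19 and 0.17).

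Eif4a1 and Eif4a2, the paralogs that unwind mRNA within eIF4F, differed little between the groups by their brightest probes. Eif4a1 was 12.07, 12.48 and 12.10 in KO and 12.23, 12.09 and 12.27 in WT, which overlap (log2 fold change 0.02, SE 0.28, adjusted p 0.98). The other Eif4a1 probe gave -0.47. Eif4a2 had a log2 fold change of 0.21, with every KO array above every WT array after normalisation, and -0.07 with cyclic loess. The scanner values lay the other way, at 6575.5, 5884.4 and 5667.3 units in KO and 7879, 6957.4 and 7504.6 units in WT. A dimmer Eif4a2 probe gave -0.675, with every KO array below every WT array. The remaining Eif4a2 probes gave 0.09 and -0.16, with overlapping groups. The difference between paralogs was not tested.

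Eif4b, which stimulates the eIF4A helicase, was 9.17, 8.91 and 7.72 in KO and 9.61, 9.91 and 9.99 in WT. All KO values were below all WT values, with KO C lowest. The log2 fold change was -1.23 (SE 0.45, adjusted p 0.21), and the gene's other probe gave -0.04. Eif4e, the cap-binding protein, was 9.44, 8.37 and 10.06 in KO and 9.47, 8.88 and 8.87 in WT. The KO embryos spread around the WT values, and the log2 fold change was 0.21 (SE 0.50, adjusted p 0.86). Among the rest, Eif4h, another helper of eIF4A, had -0.54 and Eif4g2, an eIF4G relative without the eIF4E-binding part, had -0.25. The eIF4E relatives Eif4e2 and Eif4e3 had -1.21 and 0.98, and each was high on KO B alone. Eif4e2 was 5.43, 9.66 and 5.83 in KO and 7.92, 8.25 and 8.37 in WT. Without KO B, the 1 KO embryo above WT, Eif4e2 passed the test as lower, where 563 of all genes passed against 336 with every embryo. Eif4e1b, an eIF4E relative of germ cells, and Eif4g3, a scaffold paralog, were detected on 0 arrays and not tested. Of the 9 tested genes of this group 1 passed the test, as lower, and the median log2 fold change was -0.25.

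The eIF4E inhibitors were the 1 group of initiation factors with every value above 0, although Eif4ebp1 and Eif4ebp3 turned negative with median scaling (-0.22 and -0.01) and Eif4ebp3 with cyclic loess (-0.03). None of the 4 passed the test, and their median log2 fold change was 0.69. Eif4ebp2, a 4E-BP that holds eIF4E away from eIF4G until mTORC1 phosphorylates it, was 10.27, 10.14 and 9.64 in KO and 8.60, 8.30 and 8.17 in WT. The scanner gave 1140, 1119 and 709 units in KO and 551, 462 and 469 units in WT. All 3 KO embryos were above all 3 WT embryos by both measures. The means were 10.02 ± 0.33 in KO and 8.36 ± 0.22 in WT, and the log2 fold change of 1.66 (SE 0.31) had an adjusted p of 0.060, short of the threshold. It was positive in every alternative, with adjusted p from 0.033 to 0.25. It passed with no background correction, an offset of 50, median scaling, cyclic loess, no filter or the stricter filter (detection p below 0.01 on all 6 arrays). Leaving out KO C, the KO embryo nearest to WT, also gave a pass. With no scaling, the authors' processed values, an intensity trend with a robust prior or array weights it did not pass. Nor did it pass without KO A or B, or without WT A, B or C.

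Eif4enif1 encodes 4E-T, an eIF4E-binding protein of mRNA decay granules. It was 7.06, 6.28 and 7.26 in KO and 5.54, 5.62 and 5.69 in WT. After normalisation the groups did not overlap and the WT values lay close together (log2 fold change 1.25, SE 0.35, adjusted p 0.13). Before normalisation the scanner values overlapped, at 172, 137 and 182 units in KO and 161, 158 and 177 units in WT. Over the alternatives the log2 fold change ran from 0.09 to 1.54, and the gene's other probe gave -0.54. Without KO B, the lowest of the 3 KO embryos and so the nearest to WT, Eif4enif1 passed the test as higher. Over all genes that setting gave 563 calls, against 336 with every embryo. Leaving out WT A, B or C gave no call among the factors. Eif4ebp1, the best-known 4E-BP, was 8.77, 8.06 and 9.06 in KO and 8.38, 8.997 and 8.37 in WT. These overlap throughout (log2 fold change 0.05, SE 0.39, adjusted p 0.96). Eif4ebp3 had 0.14.

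**Figure D2:**
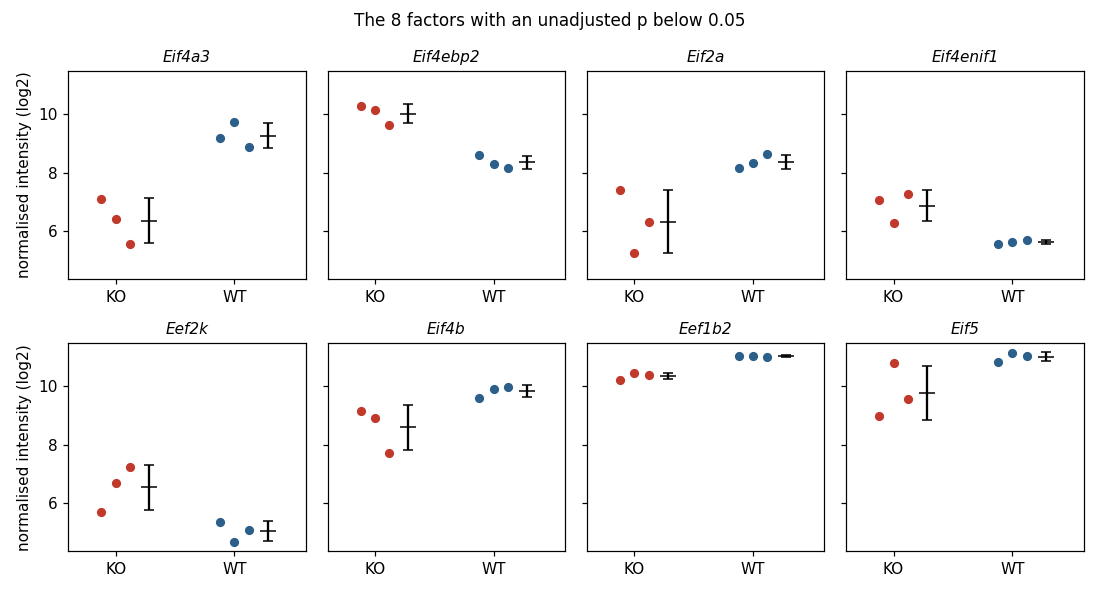
Normalised log2 intensity on each array of the 8 factors with an unadjusted p below 0.05, KO in red left of WT in blue, with the mean and SD of 3 embryos beside each group. The KO points lie below the WT points for Eif4a3, Eif2a, Eif4b, Eef1b2 and Eif5 and above them for Eif4ebp2, Eif4enif1 and Eef2k, and the KO points are farther apart in all 8.

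All 9 tested factors of scanning and start codon choice had a negative log2 fold change, with a median of -0.75, and Eif2s2 and Eif2d turned positive with cyclic loess (0.11 and 0.08). None passed the test. Eif2a, an initiator-tRNA carrier that is not a subunit of eIF2, was 7.42, 5.25 and 6.29 in KO and 8.17, 8.32 and 8.64 in WT. All KO values were below all WT values, with KO B lowest and undetected. The log2 fold change was -2.06 (SE 0.57, adjusted p 0.13). Without KO A, the highest of the 3 KO embryos and so the nearest to WT, Eif2a passed the test. Over all genes that setting gave 540 calls, against 336 with every embryo.

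Eif5, the protein that makes eIF2 hydrolyse its GTP at the start codon, was 9.002, 10.80 and 9.56 in KO and 10.85, 11.14 and 11.04 in WT. KO B came close to the WT range and KO A and C were lower (log2 fold change -1.22, SE 0.50, adjusted p 0.26). Its other probes gave 0.36 and 0.15, so the direction rests on 1 of 3 probes. Eif1ax, the X-linked eIF1A of the scanning complex, was 5.04, 5.12 and 4.45 in KO, all undetected, and 5.30, 6.10 and 5.60 in WT, all detected. Where every array of a group is undetected, only a bound is given, taken against the lowest signal detected on each of those arrays. By that bound the measured KO mean of Eif1ax lay at least 1.21-fold below the WT mean, but the gene did not pass the test (adjusted p 0.29). The bound makes no allowance for the spread between embryos. WT A, at 5.30, lay below the lowest level detected on any KO array (5.36).

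The remaining start codon factors overlapped between the groups. Eif5b, which joins the ribosomal subunits, had -1.10, from -1.67 to -0.26 with 1 embryo left out, while its other probes gave 0.92 and 0.70. Eif1ad, an eIF1A-domain protein, had -0.75, while a dimmer probe gave 1.69 and another was undetected on every KO array. The eIF1A paralog Eif1a had -0.42 and the eIF1 paralog Eif1b had -0.38. Eif2d, which can place initiator tRNA without eIF2, had -0.25, with KO A high and the other KO arrays low. Eif2s2, the beta subunit of eIF2, had -0.16 on its bright probe.

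The eIF2B exchange factor had 5 genes tested, none called, with a median of -0.73. Eif2b5, the catalytic epsilon subunit, was 8.37, 5.35 and 6.41 in KO and 8.88, 8.84 and 7.95 in WT. KO A lay inside the WT range and KO B and C below it (log2 fold change -1.84, SE 0.80, adjusted p 0.28), and its other probes gave -1.94 and 0.83. Eif2b4, the delta subunit, was 8.84, 10.31 and 4.85 in KO and 8.92, 9.39 and 8.49 in WT. One KO embryo, C, set its log2 fold change of -0.93, which was 0.64 without that embryo. Eif2b2 had -0.73, Eif2b3 0.45 and Eif2b1 0.67, the last negative with median scaling (-0.09).

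The eIF3 complex, the scaffold on the small subunit, had 11 of 12 genes tested, none called, with 8 negative and a median of -0.20. Eif3b, the subunit that carries eIF3's RNA-recognition motif and scaffold propeller, was 4.43, 4.33 and 7.23 in KO and 7.18, 7.03 and 7.09 in WT. KO C was as high as the WT embryos while KO A and B were undetected (log2 fold change -1.77, SE 0.81, adjusted p 0.30). Without KO C, Eif3b passed the test, but both KO embryos left were undetected. That pass sets WT against background and says nothing of the size of a fall. Eif3l was 9.18, 9.74 and 9.72 in KO and 10.21, 9.98 and 10.25 in WT. Its KO values were all below its WT values (log2 fold change -0.60, SE 0.30, adjusted p 0.34), and its other probe gave 0.42.

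The groups overlapped for the other eIF3 subunits. Eif3d, the subunit that can itself bind the cap, had -0.65, Eif3e -0.37, Eif3h -0.29, Eif3a -0.20, Eif3c -0.10, Eif3i -0.01, Eif3j1 0.02, Eif3f 0.09 and Eif3k 0.16. Eif3e, Eif3c, Eif3f, Eif3j1 and Eif3k each crossed 0 under some scaling. Eif3m was detected on 2 arrays, KO B and WT C, and not tested.

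Among the factors that act after joining or on subunit supply, Eif5a was 11.72, 11.83 and 12.07 in KO and 11.51, 11.35 and 11.39 in WT. This hypusine-bearing protein helps ribosomes through slow stretches. All normalised KO values were a little above all WT values (log2 fold change 0.46, SE 0.27, adjusted p 0.41). The scanner values overlapped, at 2922, 3368 and 3391 units in KO and 3434, 2963 and 3313 units in WT. Its paralog Eif5a2 had 0.70. Eif6, which keeps free large subunits apart from small ones, was 7.97, 9.27 and 9.14 in KO and 8.96, 8.76 and 9.32 in WT. Only KO A was outside the WT range (log2 fold change -0.22, SE 0.44, adjusted p 0.83).

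None of the 12 elongation genes passed the test, 9 were negative and their median was -0.33. Eef1a1, the tRNA carrier whose window with a pyrimidine run is shown above, was 12.96, 12.81 and 12.84 in KO and 13.24, 13.19 and 13.19 in WT. Each KO embryo was a little below each WT embryo (log2 fold change -0.33, SE 0.25, adjusted p 0.53). The other Eef1a1 probes gave -0.25 and 0.10. Eef1b2, the exchange subunit that recharges eEF1A, was 10.23, 10.45 and 10.40 in KO and 11.04, 11.06 and 10.998 in WT. Here the embryos of each group lay close together and the groups were apart (log2 fold change -0.67, SE 0.26, adjusted p 0.23). Its other 2 probes gave -0.56 and -0.33, so all 3 probes were negative. Eef1b2 passed the test with no filter on dim probes and with no scaling.

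Eef2, the translocase, was 10.88, 11.34 and 10.98 in KO and 11.18, 11.24 and 11.24 in WT, which overlap (log2 fold change -0.15, SE 0.28, adjusted p 0.81). Eef2k, the kinase that inhibits eEF2 by phosphorylation, was 5.71, 6.70 and 7.22 in KO and 5.36, 4.67 and 5.09 in WT. All normalised KO values were above all WT values, near the low end of the scale (log2 fold change 1.502, SE 0.47, adjusted p 0.16). The scanner values overlapped, at 113, 160 and 178 units in KO and 152, 118 and 145 units in WT. The gene's other probe was undetected on every KO array and detected on every WT array. Its WT mean of 5.01 lay below the lowest level detected on any KO array (5.36 to 5.41). The lowest detected levels on WT arrays were 4.62 to 4.67, so no bound can be given for that probe. Eef2kmt, a methyltransferase of eEF2, was 6.22, 5.79 and 5.69 in KO and 5.34, 5.38 and 4.90 in WT. After normalisation the groups did not overlap (log2 fold change 0.70, SE 0.31, adjusted p 0.29), and the value was -0.23 with median scaling. The scanner values lay the other way, at 126, 120 and 110 units in KO and 151, 146 and 136 units in WT.

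The eEF1B subunits Eef1d and Eef1g had -0.33 and -0.20, and Eef1e1, of the tRNA synthetase complex, had -0.75. Eef1a2, the eEF1A paralog of muscle and neurons, had -0.37 with KO B low. The eEF1A methyltransferases had -0.86 for Eef1aknmt, with KO C low, -0.34 for Eef1akmt1 and 0.84 for Eef1akmt2.

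The 9 TOP genes (Eef1a1, Eef1b2, Eef1d, Eef1g, Eef2, Eif3e, Eif3f, Eif3h and Eif4b) held 8 negative values and none that passed the test. The exception was Eif3f, whose window has the longest run of those shown. By the brightest probe, every KO array lay below every WT array for 4 of the 9, against 17.2% of all genes. Of these, Eef1g has 1 probe. Eef1a1, Eef1b2 and Eif4b each have at least 1 other probe whose groups overlap. Their median log2 fold change was -0.33, against -0.09 over all genes, and with cyclic loess -0.36 against 0.09. With median scaling it was -0.48 against -0.49 and without scaling -0.80 against -0.81. The intensities measure mRNA, not its translation.

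**Figure D3:**
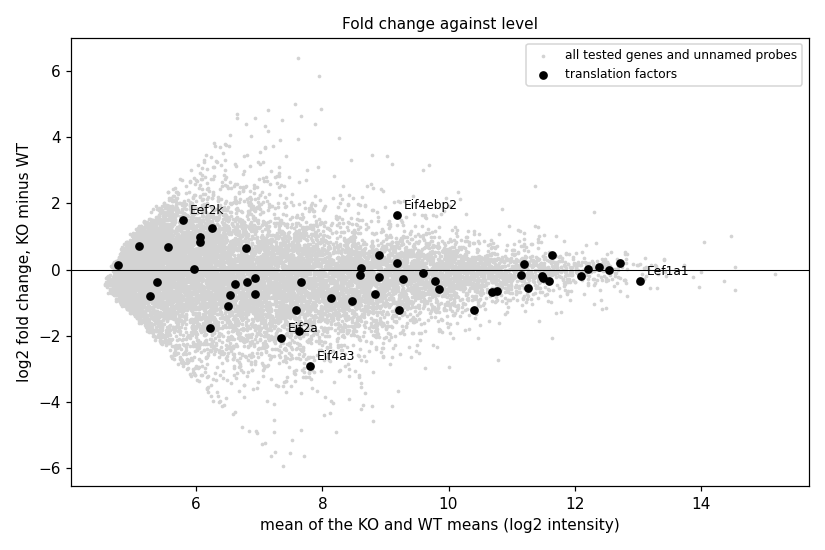
Log2 fold change, KO minus WT, against the mean of the group means (log2 intensity), for the translation factors (black) and all tested genes and unnamed probes (grey). The factors spread between -2.92 and 1.66 at middle levels and narrow to between -0.54 and 0.46 above a level of 11.

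How far a factor's value could be read depended on its level. The 13 factors above a log2 level of 11, among them Eef1a1, Eef2, Eif4a1, Eif4a2, Eif5a, Eif3f and Eif3i, had log2 fold changes between -0.54 and 0.46. Their median SD was 0.21 in KO and 0.078 in WT, near the 0.18 in KO and 0.089 in WT of all 548 genes as bright. The 12 factors between 7 and 9, where Eif4a3 lies, had a median SD of 0.93 in KO and 0.30 in WT, and a median log2 fold change of -0.80 against -0.34 for all genes at that level. Over all 53 factors the KO SD was the larger in 50 (94.3%), against 83% of all genes, with a median SD of 0.72 in KO and 0.22 in WT.

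**Figure D4:**
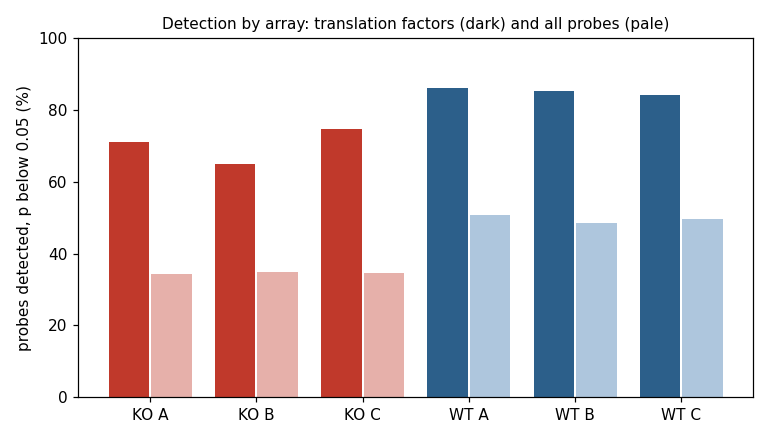
Percent of probes with a detection p below 0.05 on each array, for translation factors (dark bars) and all probes (pale bars), KO in red and WT in blue. Factor probes were detected at 64.9% to 74.6% on KO arrays and 84.2% to 86% on WT arrays, above all probes on each array.

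Detection of the factors differed between the groups in the same direction as that of all probes. Of the 114 probes, KO arrays A, B and C detected 71.1%, 64.9% and 74.6%, and WT arrays A, B and C 86%, 85.1% and 84.2%. Every KO array was below every WT array. By their brightest probe, 36 of the tested factors (67.9%) were detected on all 6 arrays, against 49.9% of all tested genes. Another 14 (26.4%, against 38.4%) were detected on every WT array and missed on at least 1 KO array. Of those 14, KO A missed 4, KO B 7 and KO C 7, and 11 were missed by a single KO array, so the missing factors differed from embryo to embryo. Eef2k alone was detected on every KO array and not on every WT array.

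**Figure D5:**
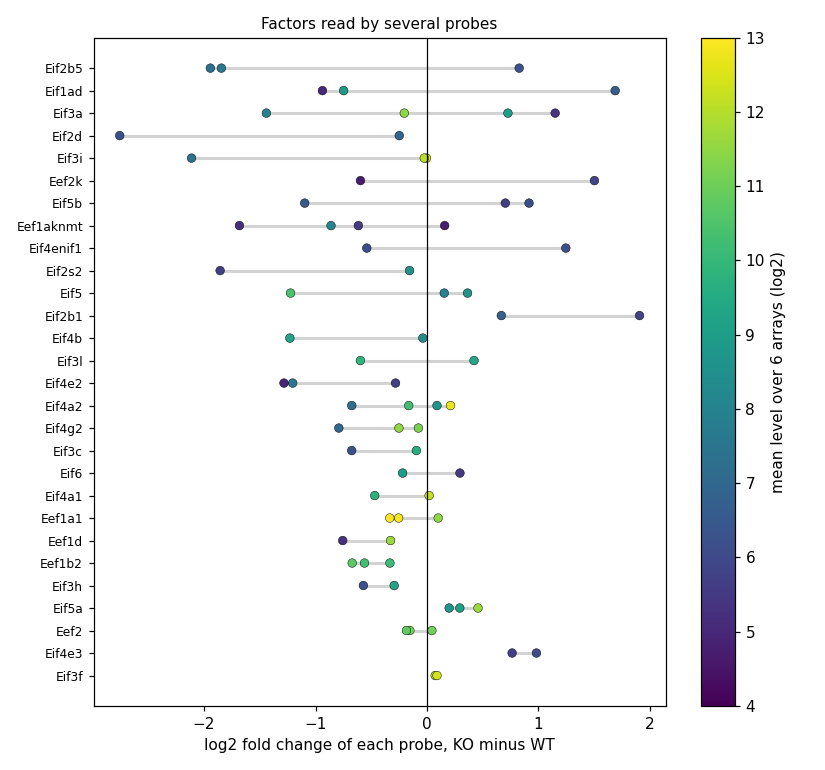
Log2 fold change, KO minus WT, of each tested probe of the 28 factors with at least 2 tested probes, coloured by mean log2 level over the 6 arrays. The probes of 14 genes lie on both sides of 0. Those of Eif3f, Eif5a, Eef2 and Eef1b2 lie close together, and Eef2 (-0.18 to 0.04) is among the 14.

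Probes of 1 gene often disagreed. Of the 28 factors with at least 2 tested probes, 14 (50%) had probes of both signs, against 48.9% of 4374 such genes, and the median range between a factor's probes was 1.01 log2 units, against 0.93. Eif3a had 4 probes from -1.44 to 1.15, with the brightest at -0.20. Eif3i had 3 probes, 2 of them bright and near 0 and a dimmer one at -2.11. When every probe was tested on its own, 2 of 98 factor probes passed (2.04%, against 2.06% of 20853 probes), both lower in KO (1.43% of all probes). One was the Eif4a3 probe and the other a dim probe of Eif2s2, undetected on every KO array. Its measured log2 fold change was -1.86 (limma adjusted p 0.044), and the bound was a KO level at least 2.31-fold lower. The bright Eif2s2 probe gave -0.16. A dim Eif2d probe was likewise undetected on every KO array, with a measured log2 fold change of -2.76 (adjusted p 0.068) and a bound of at least 4.53-fold lower. The adjusted p-values belong to the measured values, not to the bounds, which make no allowance for the spread between embryos. Both dim probes passed the filter through their 3 WT detections alone, so these tests set WT against background.

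Other translation genes were taken as lists for comparison, and limma called 0 of their 64 tested genes, against 2.41% of all genes, with 14 (21.9%) at an unadjusted p below 0.05, against 19.4% of all genes. Of 11 termination, poly(A)-binding and recycling genes, 5 were negative and the median was 0.03. Pabpc1, the main cytoplasmic poly(A)-binding protein, averaged 9.20 ± 0.16 in KO and 10.42 ± 0.13 in WT (log2 fold change -1.22, adjusted p 0.085), and Pabpc4 had -1.75 (adjusted p 0.12). Of 6 eIF2 kinase and phosphatase genes, 2 were negative and the median was 0.54. Eif2ak1, the haem-regulated eIF2 kinase of red cell precursors, averaged 8.36 ± 0.87 in KO and 6.46 ± 0.30 in WT (log2 fold change 1.89, adjusted p 0.12), beside the higher erythroid marker sum in KO given above, whose part in it was not tested. Eif2ak3, the kinase of endoplasmic reticulum stress, had 0.75 (adjusted p 0.27).

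Of 10 integrated stress response targets, the genes that ATF4 switches on when eIF2 is phosphorylated, 7 were tested, 4 were negative and the median was -0.47. Psat1, of serine synthesis, averaged 6.33 ± 1.42 in KO and 9.34 ± 0.41 in WT (log2 fold change -3.02, adjusted p 0.10), and Asns, asparagine synthetase, had -1.78 (adjusted p 0.25). Chac1 and Atf3 were undetected on every array. Of 15 genes of mTORC1 and MNK control, 9 were negative and the median was -0.63. Mtor, the kinase of mTORC1, averaged 6.06 ± 0.24 in KO and 7.40 ± 0.35 in WT (log2 fold change -1.34, adjusted p 0.10). Rps6, the ribosomal protein that S6 kinase phosphorylates, had -2.06 (adjusted p 0.16).

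Of 19 cytosolic aminoacyl-tRNA synthetase genes, 17 were tested, 14 were negative and the median was -0.26. Wars, the tryptophan enzyme, averaged 9.42 ± 0.31 in KO and 7.71 ± 0.53 in WT (log2 fold change 1.71, adjusted p 0.087), and Nars, the asparagine enzyme, had -0.68 (adjusted p 0.31). Of 8 mitochondrial translation factors, 5 were negative and the median was -0.49. Tufm, the mitochondrial counterpart of eEF1A, averaged 8.73 ± 0.57 in KO and 10.22 ± 0.27 in WT (log2 fold change -1.49, adjusted p 0.12), and the mitochondrial initiation factor Mtif3 had -0.88 (adjusted p 0.25).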

How the data were processed

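Each embryo's RNA (15 ng) was amplified and hybridised to 1 Illumina array, and all 6 arrays lay on 1 slide. The deposited scanner table holds, per the file headers, the mean bead intensity of each probe on a linear scale, its standard error, the count of beads behind it and a p-value for detection over negative controls. The authors' processed intensity table ranks probes as the scanner table does. GenomeStudio was used, per the submitters' processing notes, and the sources used here do not give its version or scaling. Per the labels, the tissue is conjunctival epithelium, while the extraction text names future lens. Depth has no counterpart on arrays, and the 3 embryos of each group limit the precision.

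Here the intensity was corrected with limma 3.58.1 under R 4.3.3 (normexp with background from the detection p-values, offset 16), quantile normalised and put on the log2 scale. Probes detected at p below 0.05 on 3 or more of the 6 arrays were kept, the brightest represented each gene, and a genotype-only lmFit and eBayes model gave p-values adjusted by Benjamini-Hochberg. The fit was also run on simulated data with the same spread in both groups. That run does not check the fit under the wider KO spread seen here. Lists' summed levels are sums of linear normalised values over tested genes. Figures were drawn with Python 3.11.15 and matplotlib 3.10.9. No genome build is named in the files, and the promoter windows carry RefSeq's own.

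Named with every array's value were called factors, the 12 next by p and Eif4e, Eif4a1, Eif4ebp1, Eif4ebp2, Eif5a, Eif6, Eef1a1, Eef2 and Eef2k. Of the other lists, called genes or the 2 with the smallest p were named. Eif2b4, Eif4e2 and the dim probes described were added after their values were seen. The members and lists were chosen with earlier results of these data known. Alternatives changed the background, offset, scaling, values (scanner or the authors'), filter, threshold, probes, prior variance, weights of arrays, replicate block or left out 1 embryo.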

Additional observations from a re-analysis of the deposited data

How the results depend on the processing

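With 3 embryos a group and a wider spread in KO, the number of translation factors called (1 of 53) depended on the setting. It was 2 with no background correction, an offset of 50, median scaling, no filter or an adjusted p below 0.10, and 5 with no scaling (all 5 lower). With limma's intensity trend and robust prior, with array weights and with the replicate block it was 0. At an unadjusted p below 0.05 the same fits gave 12, 8 and 6 of 53 factors, against 2691, 2294 and 2079 of all 13916 genes. A stricter filter asked for a detection p below 0.01 on all 6 arrays and left 31 factors and 6206 genes, without Eif4a3. Factors lower in KO were 0 with cyclic loess, that filter, the trend, the weights and the block. Factors higher in KO were 1, Eif4ebp2, with no background correction, an offset of 50, median scaling, cyclic loess, no filter, the stricter filter and an adjusted p below 0.10. Over all genes, 336 calls became 1068 with median scaling (963 lower), 2068 with no scaling (1981 lower), 660 with no filter, 189 with the stricter filter, 185 with array weights and 764 at an adjusted p below 0.10. Calls for single factor probes, 2 of 98, became 6 with median scaling, 11 with no scaling, 1 with the stricter filter, and 0 with cyclic loess, the trend, the weights and the block. Leaving out 1 embryo at a time, with the 6-array normalisation kept, gave 0 to 3 factors called, 0 to 2 lower, 0 to 1 higher, 0 to 3 probes and 12 to 563 genes, with 12, 19 and 28 genes without WT A, B and C. The factors' median of -0.25 was -0.80 with no scaling, where that of all genes was -0.81. The letters shared by KO and WT titles did not pair the embryos (correlations of deviations -0.029 for A, -0.0043 for B and -0.0052 for C), and the replicate block left 0 genes called, with 2079 at an unadjusted p below 0.05 and 0.172 as the smallest adjusted p of a factor. The causes of these shifts were not tested.

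No factor that changed sign was called under the setting concerned. The log2 fold changes that turned were, with cyclic loess, Eef1a2 0.030, Eif4ebp3 -0.030, Eif4a2 -0.070, Eif4a1 -0.17, Eif6 0.043, Eif2d 0.083, Eif2s2 0.11, Eif3c 0.15, Eif3e 0.079 and Eif3f -0.11. With median scaling they were Eif3j1 -0.67, Eif4a1 -0.15, Eef2kmt -0.23, Eif2b1 -0.087, Eif3f -0.072, Eif4ebp3 -0.0061 and Eif4ebp1 -0.22. With no scaling they were Eif3f -0.39, Eef1akmt2 -0.31, Eif5a2 -0.070, Eif5a -0.00055, Eif4ebp3 -0.33, Eif4ebp1 -0.54, Eif4a2 -0.30, Eef2kmt -0.55, Eif4a1 -0.47, Eif2b1 -0.41, Eif3k -0.26, Eif2b3 -0.096, Eif4e -0.30 and Eif3j1 -0.99. With the mean of a gene's probes they were Eif5b 0.17, Eif4a2 -0.13, Eif4a1 -0.22, Eif6 0.038, Eif3a 0.058 and Eif1ad 0.00075. Eif2d was 0.13 with no background correction and 0.0040 with an offset of 50, Eif3j1 was -0.16 with the authors' values and -0.046 with array weights, and Eif3i was 0.0023 with the authors' values. Leaving out 1 embryo turned 17 factors, with ranges of -1.14 to 0.57 for Eef1a2, -0.66 to 0.034 for Eef1akmt1, -1.72 to 0.55 for Eef1aknmt, -0.86 to 0.16 for Eif1a, -0.66 to 0.055 for Eif1b, -1.56 to 0.34 for Eif2b2, -2.09 to 0.64 for Eif2b4, -1.65 to 0.72 for Eif2d, -0.46 to 0.31 for Eif2s2, -0.11 to 0.17 for Eif3i, -0.74 to 0.70 for Eif3j1, -0.11 to 0.093 for Eif4a1, -0.17 to 0.67 for Eif4e, -0.22 to 1.77 for Eif4e3, -0.17 to 0.33 for Eif4ebp1, -0.19 to 0.35 for Eif4ebp3 and -0.46 to 0.19 for Eif6.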
